A study of Mus musculus with 2 samples.

Results

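The solute carrier genes are a superfamily of membrane proteins that move ions, nutrients, metabolites and drugs across the plasma membrane and the membranes of organelles, and they are numbered by family (Slc1, Slc2 and so on) and by member. In the present data they were taken as every gene in the deposited tables whose symbol begins with Slc and a digit, apart from Slc51a and Slc16a3, which gave 37 of the 1448 listed genes. RNA came from small intestinal organoids, crypt-derived cultures grown in Matrigel in a medium with EGF, Noggin and R-spondin. The AdipKO organoids were from mice with a floxed adiponectin gene and the Cre transgene labelled pVilli-CreT (Adipfl/flpVilli-CreT), in which the gene is deleted in intestinal epithelial cells. The WT organoids were from mice with the floxed gene alone (Adipfl/fl), so both genotypes carried the floxed allele. Controls in the study were littermates matched for age and sex. The age and sex of the organoid donors and the number of animals behind each culture are not given in the sources used here. There was 1 library per genotype, so no difference could be checked in replicates and p-values are not given.

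The tables set limits on all that follows. They list the same genes in both libraries, with summed counts of 689004.63 in AdipKO and 802994.76 in WT, and no gene has a log2 count ratio between -1.04 and 0.96. Every listed gene therefore differed by about 2-fold or more, and that a carrier differed is a property of the tables rather than a result. The genotype labels could not be checked, because Adipoq, which encodes adiponectin, is not among the listed genes. None of 10 epithelial identity genes was listed either, so the labelled tissue could not be checked from those markers. Of the marker lists for other tissues, 1 of 12 fibroblast genes was listed (Vim, 109 counts in AdipKO and 322 in WT), 1 of 14 immune genes (Itgam, 57 in AdipKO and 25 in WT) and 1 of 9 endothelial and glial genes (S100b, 24 in AdipKO and 5 in WT). In bulk RNA, fewer cells of a type and less RNA per cell cannot be told apart.

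In the gut, carriers of the brush border bring in sugars, amino acids, short-chain fatty acids, nucleosides, vitamins and minerals, and those of the basolateral side pass them to the blood or bring in what the cell needs for itself. Anion exchangers trade chloride for bicarbonate and so set the acidity of the mucus. Carriers of cystine and glycine feed the synthesis of glutathione, and the carriers of the Slc25 family link the mitochondrion to the cytosol.

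The carriers were divided nearly evenly between directions, while the listed genes as a whole were mostly lower in AdipKO. Of the 37 carriers, 19 (51.4%) had the higher count in the AdipKO library, against 37.8% of all listed genes. The other 18 (48.6%) had the lower count in AdipKO, against 62.2% of all listed genes. The same 19 and 18 genes were at least 2-fold higher or lower with a pseudocount of 1, where the shares over all listed genes are 35.3% and 62.2%. With both libraries scaled to equal listed totals, the split by sign stayed at 19 higher and 18 lower. The count at 2-fold did depend on this scaling, with 19 carriers 2-fold higher and 13 2-fold lower. The shares of all listed genes under that scaling are not given here. At 4-fold or more without scaling, 5 carriers were higher and 3 were lower in AdipKO, beside 9.94% and 13.6% of all listed genes. The median log2 ratio was 1.0 for the carriers and -1.15 for all listed genes. With a near-even split and no ratio near 0, the carriers' median lies at the edge of the higher genes. The mean log2 ratio of the carriers was 0.06, and among the 25 carriers that reached 50 counts in either library, 12 were higher, 13 were lower and the median was -1.04. Among all listed genes that reached 50 counts, 39.4% were higher, 60.6% were lower and the median was -1.10, close to that of the carriers.

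The precision of single genes varied widely. The higher of the 2 counts of a carrier had a median of 87, and 2 carriers had fewer than 16 counts over both libraries. The exact 95% interval of the count ratio lay wholly beyond 2-fold for 16 carriers and included no difference for 1, the magnesium carrier Slc41a3. The listed genes were selected by fold on these same counts, so that most intervals exclude no difference is not a result. That selection may also make ratios on few counts too large. The share of all listed genes with an interval beyond 2-fold is not given here. These intervals cover counting error only, since reads are not independent molecules and neither cultures nor animals were repeated. No carrier had a count of 0 in either library, and the counts of 34 carriers were whole numbers.

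**Figure D1:**
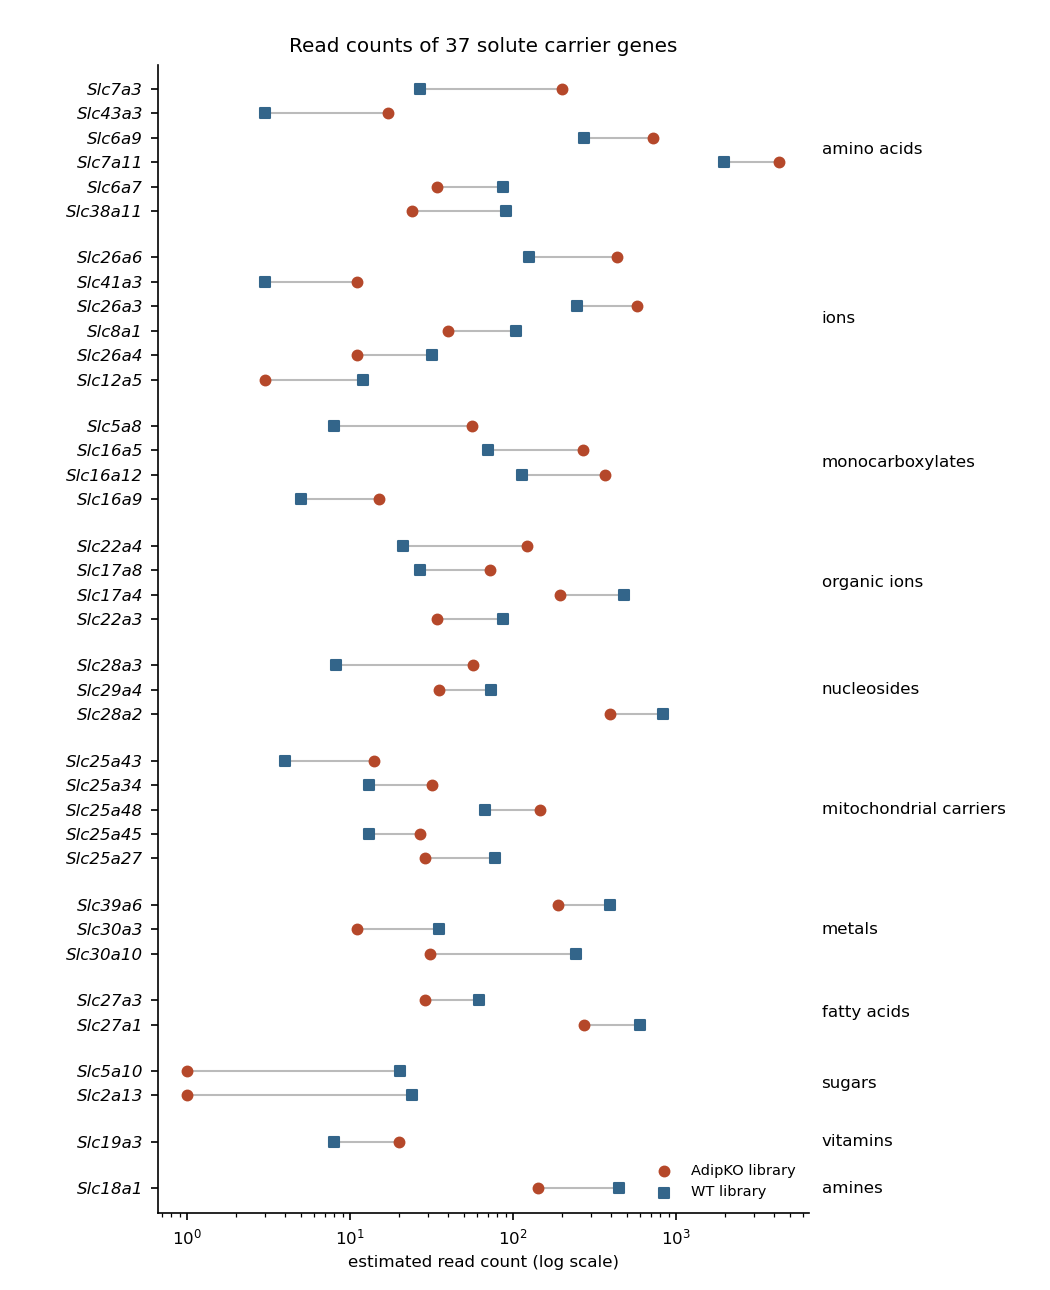
Estimated read counts of the 37 solute carrier genes on a log axis, grouped by substrate, with a circle for the AdipKO library and a square for the WT library and a line joining the 2 counts. All 4 monocarboxylate family genes lie to the right in AdipKO, whereas all 3 metal carriers lie to the left. The magnesium carrier Slc41a3, higher in AdipKO, is grouped with the ions. Over all listed genes, 37.8% were higher and 62.2% were lower in AdipKO.

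Amino acid carriers contained the most abundantly counted gene of the set. They were higher in AdipKO in 4 of 6 cases, beside 37.8% of all listed genes, with a median log2 ratio of 1.26. Slc7a11, the light subunit of the exchanger that imports cystine for glutathione synthesis and exports glutamate, had 4281 counts in AdipKO and 1967 in WT. It was 2.18-fold higher in AdipKO (95% interval 2.06 to 2.30), the narrowest interval among the carriers. The gene lies on chromosome 3 from 50364936 to 50499087 in GRCm38.p6, the assembly behind mm10. Slc7a3, a carrier of the cationic amino acids arginine and lysine, had 199 counts in AdipKO and 27 in WT. Its ratio of 7.37 (4.92 to 11.5) was the highest of the 37. Slc6a9, a sodium- and chloride-coupled glycine carrier, had 720 counts in AdipKO against 272 in WT and was 2.65-fold higher (2.30 to 3.05). Its exons overlap those of B4galt2 and Ccdc24 on the opposite strand, and whether reads were assigned by strand is not given.

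These 3 genes made up the whole listed part of a list of 9 amino acid carriers known as targets of ATF4, the transcription factor of the integrated stress response. All 3 were higher in AdipKO, beside 37.8% of all listed genes, with summed counts of 5200 in AdipKO and 2266 in WT. The other 6, Slc3a2, Slc7a5, Slc7a1, Slc1a4, Slc1a5 and Slc38a2, were not among the listed genes. A list of 23 genes of that response was added after the values had been seen. Of these the tables hold 8, each of them higher in AdipKO, beside 37.8% of all listed genes. The rest of the 23 were not listed. Their median log2 ratio was 1.99, with summed counts of 13379 in AdipKO and 3418 in WT. Among them Gdf15, a secreted stress factor, had 4493 counts in AdipKO and 817 in WT. Cth, which encodes the enzyme that makes cysteine from cystathionine, had 4341 counts in AdipKO and 1216 in WT and was chosen after its value had been seen. The part of this response in the carriers' counts was not tested.

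Because Slc7a11, Slc6a9 and Slc7a3 lay together in direction, the RefSeq promoter windows of the carriers, 250 bases before to 50 after an annotated start, were searched for the C/EBP-ATF response element (TGATGNAA, or TTNCATCA on the other strand). Of the 37 carriers 29 had at least 1 window, 37 windows in all, and Slc7a3 had none. The letters were found in 1 of these 37 windows (2.70%), that of Slc7a11, beside 3.97% of all 32851 windows. The Slc7a11 window held 2 matches, from position -66 to -59 and from -47 to -40 relative to the start, and 2 or more matches occurred in 0.0700% of all windows. The window starts within the annotated span of the gene, on the minus strand of chromosome 3 from 50443564 to 50443863 in GRCm38.p6. It is printed because it alone among the carriers' windows holds the element, with the matches in capitals.
Slc7a11: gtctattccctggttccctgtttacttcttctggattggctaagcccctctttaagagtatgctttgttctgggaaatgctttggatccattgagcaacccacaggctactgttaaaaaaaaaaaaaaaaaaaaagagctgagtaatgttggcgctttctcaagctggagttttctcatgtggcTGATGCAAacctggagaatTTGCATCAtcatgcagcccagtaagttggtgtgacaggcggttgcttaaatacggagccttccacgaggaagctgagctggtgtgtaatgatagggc

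The core of the antioxidant response element (TGACNNNGC, or GCNNNGTCA on the other strand), the element bound by NRF2, was found in 6 of the 37 windows (16.2%), beside 12.4% of all windows. Of the 3 Slc6a9 windows 2 held it. The other carriers with it were Slc17a8, Slc28a3 and Slc16a12, which were higher in AdipKO, and Slc29a4, which was lower. Slc7a11 had no match to this element, and Slc6a9 had none to the C/EBP-ATF element. One of the Slc6a9 windows, on the plus strand of chromosome 4 from 117849100 to 117849399, is shown as an example, with the match from -46 to -38 in capitals.
Slc6a9: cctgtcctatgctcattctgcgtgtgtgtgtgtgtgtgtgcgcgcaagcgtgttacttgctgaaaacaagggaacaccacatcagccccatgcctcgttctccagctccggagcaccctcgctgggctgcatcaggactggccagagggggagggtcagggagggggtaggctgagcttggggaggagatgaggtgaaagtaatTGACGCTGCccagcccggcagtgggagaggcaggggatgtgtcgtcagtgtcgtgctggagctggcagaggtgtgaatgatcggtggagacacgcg
The E-box letters CACGTG were in 5 of the 37 windows (13.5%), beside 7.15% of all windows. A match of letters is a description and not a binding site.

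The remaining amino acid carriers were counted more thinly and went in different directions. Slc43a3, a member of the amino acid carrier family Slc43 whose human counterpart carries purine nucleobases, was placed in this group by its family number. It had 17 counts in AdipKO against 3 in WT, a ratio of 5.67 with an interval from 1.64 to 30.2. Without Slc43a3, the 5 carriers of the group, all of which reached 50 counts, had a median log2 ratio of 1.12. Slc6a7, a proline carrier known from brain synapses, had 34 counts in AdipKO against 87 in WT and was 2.56-fold lower (1.70 to 3.92). Slc38a11, a member of a family of neutral amino acid carriers, had 24 counts in AdipKO against 90 in WT and was 3.75-fold lower (2.37 to 6.15). The group's summed counts, most of them from Slc7a11, were 5275 in AdipKO and 2446 in WT.

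Ion carriers were split evenly, 3 higher and 3 lower in AdipKO, beside 37.8% and 62.2% of all listed genes. The well counted chloride and bicarbonate exchangers were among the higher ones. Slc26a6, an exchanger of chloride for bicarbonate and oxalate at the brush border, had 435 counts in AdipKO and 125 in WT and was 3.48-fold higher (2.85 to 4.28). Slc26a3, the main chloride and bicarbonate exchanger of the gut surface, had 578 counts in AdipKO and 246 in WT and was 2.35-fold higher (2.02 to 2.74). Slc26a4, known as pendrin, an anion exchanger studied mostly in thyroid, kidney and inner ear, had 11 counts in AdipKO and 32 in WT. Slc26a3 and Slc26a4 are neighbours on chromosome 12, from 31433142 to 31473922 and from 31519814 to 31560055, a gap of 45892 bases, so adjacent genes of 1 family had opposite directions. Slc8a1, the sodium and calcium exchanger, had 40 counts in AdipKO and 105 in WT and was 2.63-fold lower (1.81 to 3.88). Its exons overlap an antisense transcript and the protein-coding gene Gm11096 on the opposite strand. The remaining pair was counted thinly. Slc41a3 had 11 counts in AdipKO and 3 in WT (ratio 3.67, interval 0.969 to 20.5), and Slc12a5, the potassium and chloride cotransporter best known from neurons, had 3 counts in AdipKO and 12 in WT (4-fold lower, 1.08 to 22.1).

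The carriers of monocarboxylates and their family were all higher in AdipKO, 4 of 4, beside 37.8% of all listed genes. Their median log2 ratio was 1.80, with summed counts of 703 in AdipKO and 196 in WT. Slc16a12, a member of the family whose human counterpart carries creatine, had 365 counts in AdipKO and 113 in WT and was 3.23-fold higher (2.61 to 4.03). Slc16a5, whose human counterpart carries drugs rather than lactate, had 267 counts in AdipKO and 70 in WT and was 3.81-fold higher (2.92 to 5.04). Slc5a8, the sodium-coupled carrier of lactate and short-chain fatty acids in the apical membrane, had 56 counts in AdipKO and 8 in WT and was 7-fold higher (3.32 to 17). Slc16a9 was thinly counted, with 15 counts in AdipKO and 5 in WT. Exons of Slc16a5 and Slc16a9 overlap antisense transcripts, and those of Slc16a9 also overlap a pseudogene on the opposite strand. RefSeq holds 13 genes of the Slc16 family apart from Slc16a3, and nothing is said here of the 10 that were not listed. Slc16a3 itself is listed but was left out of the carriers, so it is not among the 4.

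**Figure D2:**
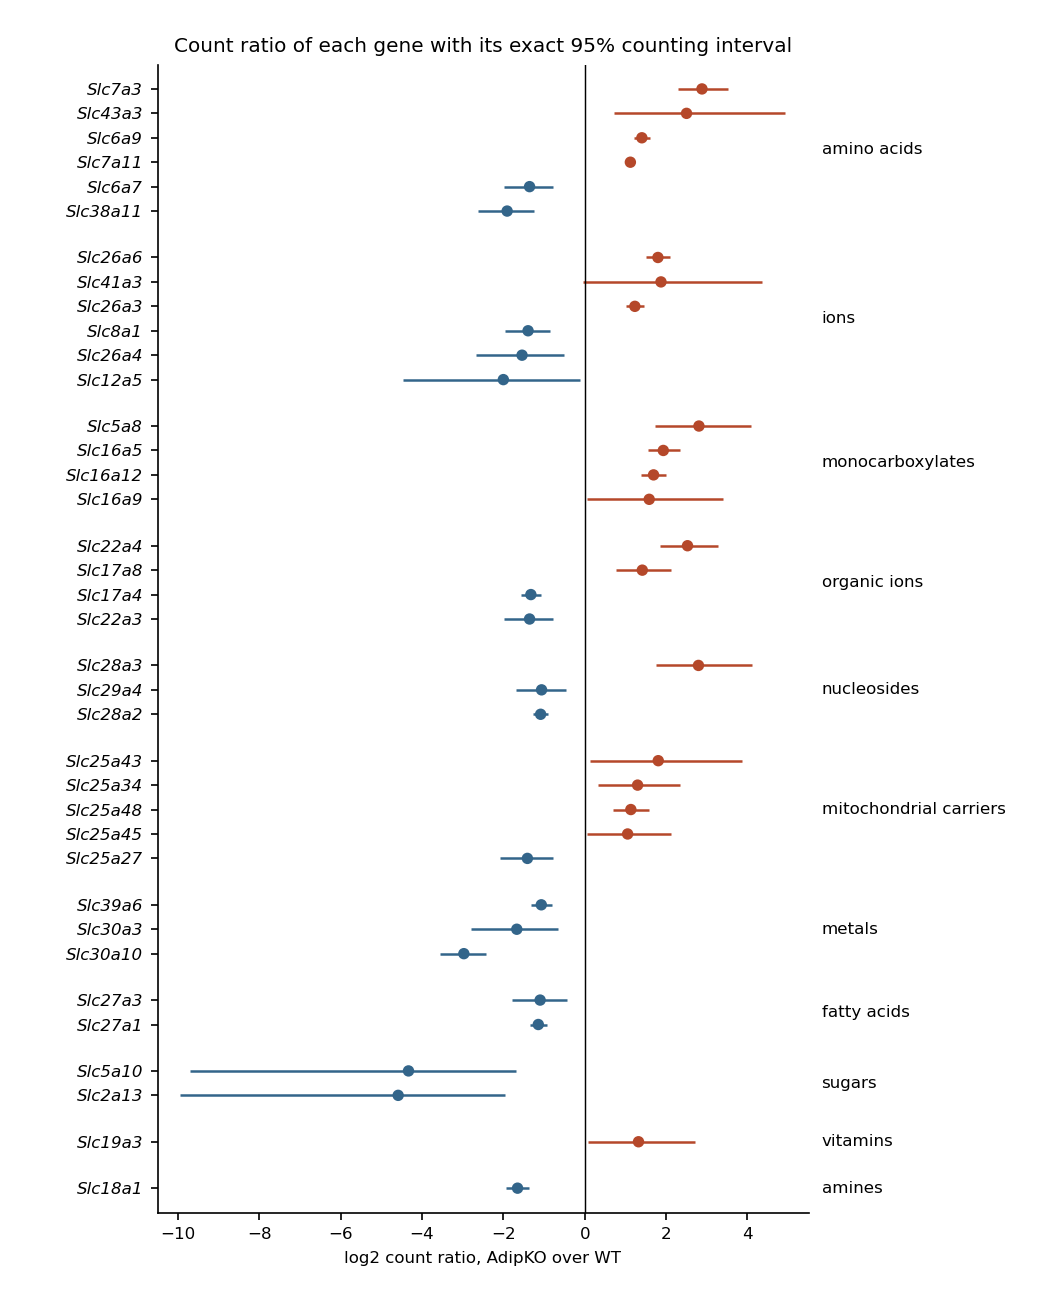
Log2 ratio of the counts, AdipKO over WT without a pseudocount, for the 37 solute carrier genes, with exact 95% counting intervals as lines (red above 0, blue below 0). The interval of Slc7a11 spans 2.06-fold to 2.30-fold, whereas those of Slc2a13 and Slc5a10, with 1 count each in AdipKO, extend to 987-fold and 829-fold lower.

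Nucleoside carriers differed from one another, 1 higher and 2 lower in AdipKO, beside 37.8% and 62.2% of all listed genes. Slc28a2, the concentrative carrier with a preference for purine nucleosides, had 392.98 counts in AdipKO and 832.99 in WT and was 2.12-fold lower (1.88 to 2.40). Slc28a3, the concentrative carrier that takes purine and pyrimidine nucleosides alike, had 56.93 counts in AdipKO and 8.20 in WT and was 6.94-fold higher (3.38 to 17.3). Both genes have fractional counts, and how the counting divided reads between related genes is not given, so their values are uncertain in that respect. Exons of Slc28a3 also overlap a processed pseudogene on the opposite strand. Slc29a4, a member of the equilibrative family that carries monoamines and other organic cations as well as adenosine, had 35 counts in AdipKO and 73 in WT and was 2.09-fold lower (1.38 to 3.22).

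Carriers of organic ions were also divided, 2 higher and 2 lower in AdipKO, beside 37.8% and 62.2% of all listed genes. Slc22a4, the ergothioneine carrier, had 121 counts in AdipKO and 21 in WT and was 5.76-fold higher (3.61 to 9.65). Slc22a3, an organic cation carrier of the same family, had 34 counts in AdipKO and 87 in WT and was 2.56-fold lower (1.70 to 3.92). Its exons overlap those of Plg on the opposite strand. Slc17a4, an organic anion carrier found in intestine, had 193 counts in AdipKO and 483 in WT and was 2.50-fold lower (2.11 to 2.97). Slc17a8, a vesicular glutamate carrier, had 72 counts in AdipKO and 27 in WT and was 2.67-fold higher (1.69 to 4.32).

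Mitochondrial carriers were higher in AdipKO in 4 of 5 cases, mostly on few counts, beside 37.8% of all listed genes. Their median log2 ratio was 1.12. Slc25a48, a carrier tied to the entry of choline into mitochondria, had 147 counts in AdipKO and 67 in WT and was 2.19-fold higher (1.63 to 2.97). Slc25a34, Slc25a43 and Slc25a45, whose substrates are less well established, had 32, 14 and 27 counts in AdipKO, against 13, 4 and 13 in WT. Slc25a27, a carrier of the uncoupling protein branch known mainly from neurons, was the exception with 29 counts in AdipKO and 77 in WT, 2.66-fold lower (1.71 to 4.22). RefSeq has 47 Slc25 genes, so most of the family is outside the tables.

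Metal carriers were lower in AdipKO in 3 of 3 cases, with a median log2 ratio of -1.58 and summed counts of 231 in AdipKO and 674 in WT. Lower counts in AdipKO were also the majority over all listed genes, at 62.2%. The magnesium carrier Slc41a3, with 11 counts in AdipKO and 3 in WT, was grouped with the ion carriers and is not among these 3. Slc30a10, which exports manganese from cells of liver and gut, had 31 counts in AdipKO and 243 in WT and was 7.84-fold lower (5.38 to 11.8). This was the lowest ratio among the carriers that reached 50 counts in either library, and exons of the gene overlap a noncoding RNA gene, Gm2061, on the opposite strand. Slc39a6, a zinc importer, had 189 counts in AdipKO and 396 in WT and was 2.10-fold lower (1.76 to 2.51). Slc30a3, which loads zinc into vesicles, had 11 counts in AdipKO and 35 in WT.

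Both listed fatty acid transport proteins and both listed sugar carriers were lower in AdipKO, beside 62.2% of all listed genes. Slc27a1, which takes up long-chain fatty acids, had 273 counts in AdipKO and 602 in WT and was 2.21-fold lower (1.91 to 2.55). Slc27a3, an acyl-CoA synthetase of the same family, had 29 counts in AdipKO and 62 in WT and was 2.14-fold lower (1.35 to 3.45). Slc2a13, the proton-coupled carrier of myo-inositol, had 1 count in AdipKO and 24 in WT, 24-fold lower with an interval from 3.91 to 987. Slc5a10, a sodium-coupled carrier of mannose and fructose known from kidney, had 1 count in AdipKO and 20.13 in WT, 20.1-fold lower with an interval from 3.20 to 829, and its exons overlap Fam83g and Grap on the opposite strand. The main sugar carriers of the enterocyte, Slc5a1, Slc2a2 and Slc2a5, were not among the listed genes.

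The last 2 groups had 1 gene each. Slc19a3, a thiamine carrier, had 20 counts in AdipKO and 8 in WT. Slc18a1, which loads serotonin and other monoamines into the granules of endocrine cells, had 142 counts in AdipKO and 446 in WT and was 3.14-fold lower (2.59 to 3.82). Of 19 markers of enteroendocrine cells 7 were listed, and all 7 were lower in AdipKO, beside 62.2% of all listed genes. Their summed counts were 4478 in AdipKO and 10663 in WT, with none at a count of 0. Their part in the lower Slc18a1 count was not tested.

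**Figure D3:**
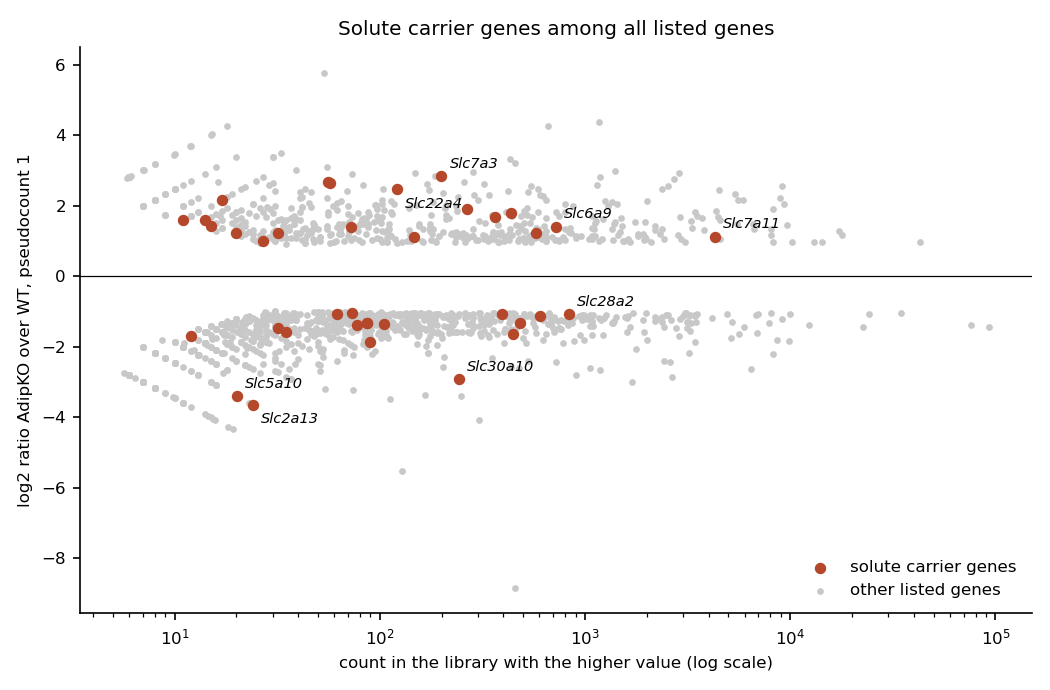
Log2 ratio of AdipKO over WT with a pseudocount of 1 against the larger of its 2 counts (log axis), for the 37 solute carrier genes (red) and the other listed genes (grey). The empty band around 0 reflects the selection of the tables, and the carriers lie on both sides of it, 19 above and 18 below.

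The listed genes of a family were compared with one another. The 37 carriers came from 21 families, of which 11 had at least 2 listed genes. In 7 of these 11 the listed genes went both ways, in 2 (Slc7 and Slc16) all were higher in AdipKO and in 2 (Slc27 and Slc30) all were lower. Slc16a3, a listed gene left out of the 37, is not counted in the Slc16 family here. Since the carriers as a whole were divided nearly evenly, families with both directions are to be met without any pattern by family, and these counts are a description. The change of a gene relative to another of its family does not depend on how the libraries are scaled, so it was computed for the 11 pairs of opposite direction as the ratio of the AdipKO over WT ratios. For Slc22a4 over Slc22a3 it was 14.7 (7.70 to 28.5), and for Slc28a3 over Slc28a2 it was 14.7 (7.06 to 36.9). In each pair 1 carrier was higher and its relative lower in AdipKO. For Slc26a6 over Slc26a4 it was 10.1 (4.78 to 22.8) and for the neighbours Slc26a3 over Slc26a4 it was 6.84 (3.28 to 15.2). For Slc6a9 over Slc6a7 it was 6.77 (4.38 to 10.6) and for Slc17a8 over Slc17a4 it was 6.67 (4.08 to 11.1). The Slc5 pair, Slc5a8 over Slc5a10, rested on 1 AdipKO count of Slc5a10 and ran from 16.4 to 5897. Among the mitochondrial carriers the values over Slc25a27 ran from 5.51 to 9.29. The gap in the tables by itself forces any opposite pair to differ by at least 4.01-fold, the pairs were chosen for their opposite directions, and 4 of them share Slc25a27 and 2 share Slc26a4, so the size of these ratios is a description.

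**Figure D4:**
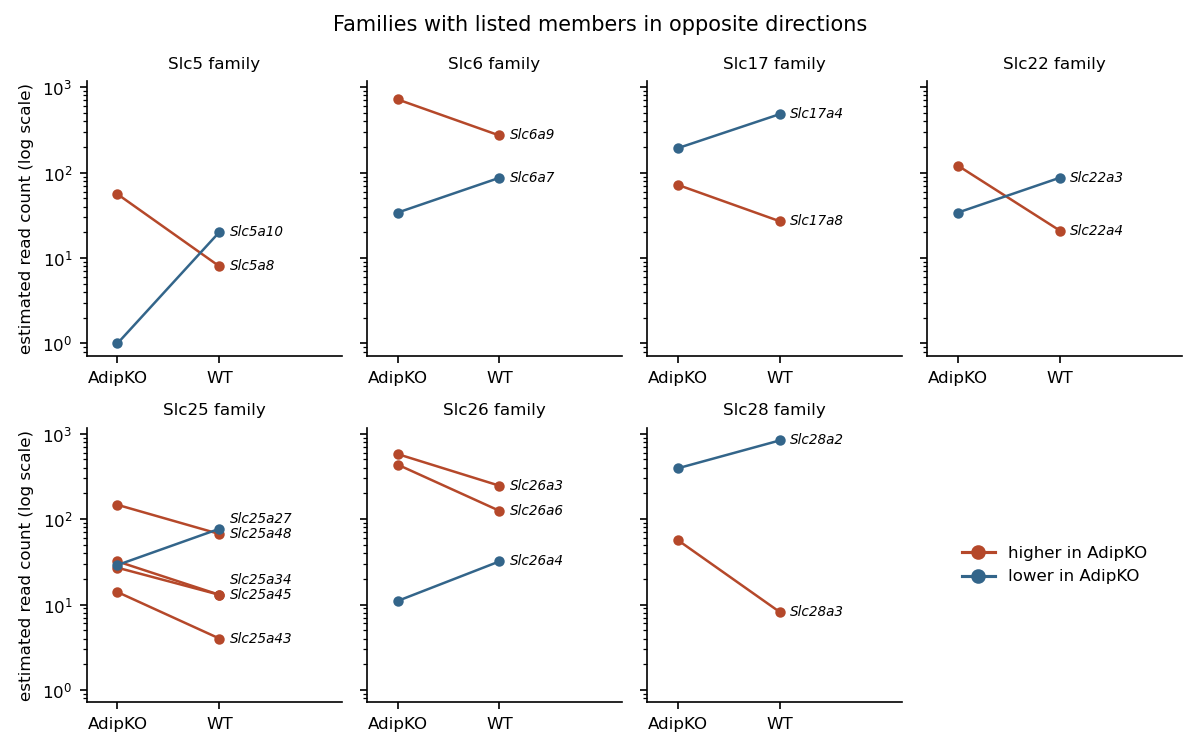
Estimated read counts (log axis) in the AdipKO library (left) and the WT library (right) for the 7 Slc families whose listed genes went in opposite directions. Lines of Slc22a4 and Slc22a3, of Slc5a8 and Slc5a10, and of Slc25a48 or Slc25a34 and Slc25a27 cross between the libraries, since each higher gene had fewer counts than its relative in WT and more in AdipKO.

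Carriers of the enterocyte had no common direction, beside 37.8% of all listed genes higher in AdipKO. Of 34 nutrient carriers of enterocytes 5 were listed, with Slc5a8, Slc28a3 and Slc19a3 higher and Slc30a10 and Slc28a2 lower in AdipKO, and summed counts of 556.91 in AdipKO and 1100.19 in WT. Of 13 ion carriers of enterocytes 3 were listed, with Slc26a3 and Slc26a6 higher and Slc8a1 lower, and summed counts of 1053 in AdipKO and 476 in WT. Markers of enterocytes other than carriers were listed for 5 of 24 genes, 4 of them higher in AdipKO, with summed counts of 5420 in AdipKO and 1741 in WT and none at 0. Their part in the carrier counts was not tested.

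Among partners and regulators of carriers, 4 listed genes are described, each with the higher count in AdipKO. Over all listed genes, 37.8% were higher. Car2, the cytosolic carbonic anhydrase that supplies bicarbonate to anion exchangers such as Slc26a3, had 646 counts in AdipKO and 206 in WT and was 3.14-fold higher (2.68 to 3.69). Pdzk1, a scaffold that holds carriers such as Slc26a6 at the apical membrane, had 27.09 counts in AdipKO and 10.57 in WT. Hif1a, the oxygen-sensitive transcription factor, had 3790 counts in AdipKO and 1537 in WT. Pdzk1ip1, which encodes a protein that interacts with Pdzk1, had 380 counts in AdipKO and 195 in WT, a ratio of 1.95 (1.64 to 2.33), and was named after its value had been seen.

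Transporters of other families showed no common direction, with 6 of 14 listed genes higher and 8 lower in AdipKO beside 37.8% of all listed genes higher, and a median log2 ratio of -1.08. The summed counts ran the other way, with 14564 in AdipKO and 6571 in WT. They were matched by symbol as ABC transporters, organic anion transporting polypeptides, transport ATPases, aquaporins and Mfsd genes. Abca12, a lipid transporter known from skin, had 15 counts in AdipKO and 0 in WT. Atp12a, a proton and potassium ATPase, had 0 counts in AdipKO and 11 in WT. Most of the summed counts came from the drug efflux pumps Abcb1a, with 9606.09 counts in AdipKO and 3545.42 in WT, and Abcc2, with 4550 in AdipKO and 2210 in WT, both named after their values had been seen.

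Transcript properties were set side by side for the carriers of either direction, without a test. Median transcript GC content was 50.5% for the 19 carriers higher in AdipKO and 51.9% for the 18 that were lower. Values were available for 530 of the 547 higher listed genes and 855 of the 901 lower ones. Over these the median was 49.8% for the higher and 54.1% for the lower. Median transcript length was 2371 nucleotides for the higher carriers and 2110.75 for the lower, against 1874.75 and 2645.5 nucleotides over the listed genes with values.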

How the data were processed

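Total RNA from small intestinal organoids was sequenced at BGI on the MGISEQ-2000 as paired-end reads, in 1 library per genotype. The authors deposited estimated counts of reads per gene, unscaled, for 1448 genes aligned to mm10. For the aligner, the counting program and any use of strand, versions and settings are not given in the sources used here. Per the file headers, each table holds only read counts. The tables hold a selected part of each library, so the depth is unknown and no scaling was applied. Log2 ratios (AdipKO over WT) used a pseudocount of 1 on both counts. Ratios of the 2 counts carry exact (Clopper-Pearson) 95% intervals, computed after rounding to whole counts with scipy 1.17.1. The calculation was checked on simulated independent Poisson counts without selection by fold, so the check does not cover the selection of the listed genes. Intervals for pairs of genes are those of the conditional odds ratio of the 4 counts. Without replicates no test was made. Substrate groups followed the Slc family number, with listed exceptions. Names, coordinates and promoter windows came from RefSeq (GRCm38.p6), and exon overlaps, transcript lengths and GC content from GENCODE M21. Every carrier gene was named, and genes under 50 counts in the higher library were given by their counts, with a ratio and interval added where a library had 1 to 3 counts. The genes and lists were chosen with earlier results of these data known, and the enterocyte, enteroendocrine and stress lists were added after the values had been seen. Alternatives covered the pseudocount (0.1 and 5), scaling, a count minimum, whole counts, exon overlap, the fold threshold and the mean. One result on a partner gene, and the summary of its list, are not reported here.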

Additional observations from a re-analysis of the deposited data

How the results depend on the processing

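When only carriers reaching 50 counts in either library were kept, 12 carriers were higher by sign and 12 by 2-fold. The median log2 ratio was then -1.04 over all carriers kept, 1.23 for ion and -0.13 for the 2 mitochondrial carriers left. Over all listed genes with that minimum, 39.4% were higher and the median was -1.10. At a threshold of 4-fold, 5 carriers were higher and 3 lower. The mean log2 ratio over all carriers was 0.06, where the median was 1.0. Scaling to equal listed totals adds 0.22 to every log2 ratio, which left 19 carriers 2-fold higher and 13 rather than 18 2-fold lower, and gave medians of 1.22 for all carriers, 1.48 for amino acid and 0.15 for ion carriers, the last against -0.07 unscaled. No single carrier changed direction with this scaling, and 4 of 37 left their counting interval. The exon overlap alternative was chosen after the data had been seen and left 29 carriers, 15 higher and 14 lower. No paired analysis was possible because each genotype has 1 library. The depth of each library is unknown, so levels relative to depth are not given, and 12 carriers had fewer than 50 counts in the higher library.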

Other observations

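Several carriers lie within 100 kb of other listed genes, and the neighbours went both ways. Slc16a12 lies on chromosome 19 from 34668401 to 34747493, beside 5 listed genes of the interferon-induced Ifit cluster. All 5 were higher in AdipKO, like Slc16a12, where 37.8% of all listed genes were higher. Ifit1bl2 had 185 counts in AdipKO and 25 in WT, Ifit1 had 114 in AdipKO and 25 in WT, and Ifit1bl1 had 143 in AdipKO and 63 in WT. Ifit3 and Ifit3b had 29.05 and 21.95 counts in AdipKO, against 7 and 3 in WT. These genes are close relatives, so how reads were divided between them is uncertain, and Ifit3 and Ifit3b have fractional counts in AdipKO.

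Slc25a27 lies 158 bases from Cyp39a1, which encodes an oxysterol hydroxylase, and the 2 genes had opposite directions. Cyp39a1 had 560 counts in AdipKO and 266 in WT, while Slc25a27 had 29 in AdipKO and 77 in WT. Rsc1a1, a regulator of sugar and organic cation carriers, lies 59672 bases from Slc25a34 and had 106.43 counts in AdipKO and 43.79 in WT. Nr1h4, which encodes the bile acid receptor, lies 40375 bases from Slc17a8 and had 580 counts in AdipKO and 224 in WT. Pairs of neighbours were looked at after the values had been seen.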
